A study of Mus musculus with 24 samples.

Results

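The EGF ligands and ErbB receptors were followed across kidneys with graded hydronephrosis in the megabladder mouse. The set was chosen by name and held 10 genes, of which 6 encode ligands (Egf, Tgfa, Hbegf, Areg, Ereg and Btc) and 4 encode receptors (Egfr, Erbb2, Erbb3 and Erbb4). On the array they were represented by 12 of 55681 probes, and 9 of the 10 genes were among the 27958 genes tested. Erbb4 was the exception, because its probe stood well above background on 2 of 24 arrays and the filter asked for at least 5. Areg (6 arrays) and Ereg (7 arrays) passed that filter only through mgb-/- kidneys, so counts over the genes that passed carry this selection.

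The 24 whole kidneys came from age-matched male mice, a few weeks old by the study's methods. Of these, 6 were controls of genotype mgb+/+ and 18 were of genotype mgb-/-, a mutant with congenital obstructive disease of the kidneys. The labels grade the mgb-/- kidneys as mild (7 kidneys), moderate (5 kidneys) or severe (6 kidneys), and the study's methods assigned the grade by ultrasound from the parenchyma that was left. It is not given which kidneys share a mouse, and p-values therefore measure only the spread between kidneys. Each kidney was hybridized to its own array with 1 dye, and values below are the log2 of the processed signal minus the 75th percentile of the array. A value of 0 is therefore the 75th percentile, and levels of different genes were not compared because each probe has its own response.

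The ErbB family consists of receptor tyrosine kinases on the cell surface that pair when a ligand binds. EGF, transforming growth factor alpha and amphiregulin bind EGFR, whereas heparin-binding EGF, betacellulin and epiregulin bind both EGFR and ERBB4. ERBB2 has no known ligand of its own and acts as a partner of the others, and ERBB3 has little kinase activity. The ligands are made as membrane proteins and are released by metalloproteases such as ADAM17. In the kidney, EGF is made mainly in the thick ascending limb and the distal convoluted tubule and is secreted into the urine.

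Kidney markers were well above background in every group, including all 15 proximal tubule and all 15 thick limb and distal tubule genes. Some arrays stood apart. The mean of 7 adrenal genes was 4.64 in mild replicate 4 and 4.67 in moderate replicate 1, against -4.78 to -3.87 in the controls, and 3 other mild kidneys and 1 other moderate kidney lay between -1.73 and -0.68. Severe replicate 4 had the smallest share of probes well above background (55.1%, the highest share being 70.7%) and the most spots marked as outliers (660, against 102 to 261 on the others). The 24 arrays lay on 3 slides, each with 2 control and 6 mgb-/- kidneys. Values without mild replicate 4, moderate replicate 1 or severe replicate 4 are given where these kidneys move a result.

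The 250 bases before the annotated start are shown for Areg and Tgfa, the members called with the lowest adjusted p in severe kidneys. The sequences are from RefSeq, assembly GRCm38.p6, from which those of 7 of the 10 genes were read. The genes are Areg, whose bases lie on the plus strand at chr5:91139349-91139598, and Tgfa, on the plus strand at chr6:86194972-86195221. Capitals mark matches on either strand to motifs. The first is TGACGTCA, a cyclic AMP response element. For AP-1 the letters searched were TGANTCA. For Sp1 they were GGGCGG, and for EGR factors GCGNGGGCG, which may overlap an Sp1 match. The TATA box was searched as TATAAA.
Areg: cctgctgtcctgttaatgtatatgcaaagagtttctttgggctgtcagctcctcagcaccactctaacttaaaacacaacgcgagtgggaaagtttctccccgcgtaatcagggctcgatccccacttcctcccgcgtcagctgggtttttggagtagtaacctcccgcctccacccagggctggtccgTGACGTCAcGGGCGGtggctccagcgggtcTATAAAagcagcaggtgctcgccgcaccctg
Tgfa: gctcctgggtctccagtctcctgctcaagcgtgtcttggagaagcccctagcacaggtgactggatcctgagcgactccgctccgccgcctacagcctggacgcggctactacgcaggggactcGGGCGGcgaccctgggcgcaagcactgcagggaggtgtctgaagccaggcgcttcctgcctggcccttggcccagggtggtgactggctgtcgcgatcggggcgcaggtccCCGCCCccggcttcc
In Areg, TGACGTCA began 61 bases before the start, GGGCGG began 52 bases before it and TATAAA began 31 bases before it. Over 32851 promoters of this length, TGACGTCA was found in 1.55%, GGGCGG in 32.7% and TATAAA in 12.4%. Tgfa held GGGCGG in 2 places, 126 and 15 bases before the start, on opposite strands, and no TATAAA. Neither held TGANTCA (6.75% of promoters) or GCGNGGGCG (4.70%). In the same window, Egfr held GGGCGG on the opposite strand, 9 bases before its start, and Egf (at either of 2 starts), Btc, Erbb2 and Erbb4 held none of these letters.

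Comparison of all 18 mgb-/- kidneys with the 6 controls asked which members of the family differed between mgb-/- kidneys of any grade and controls. Genotype and obstruction cannot be told apart here, because every graded kidney was mgb-/- and every control mgb+/+. Areg, Hbegf and Erbb2 were higher in mgb-/- kidneys and no member was lower, so 3 of 9 genes tested were called by limma at an adjusted p under 0.05. Over all genes the same test called 13.3% in either direction and 5.34% as higher. Areg passed the filter only through mgb-/- kidneys, so the count of members carries that selection. The median log2 change of the 9 genes was 0.20, also with Areg and Ereg set to their bounds against the controls, beside 0.01 over all genes. The plot of the values by kidney shows all 10 genes.

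**Figure D1:**
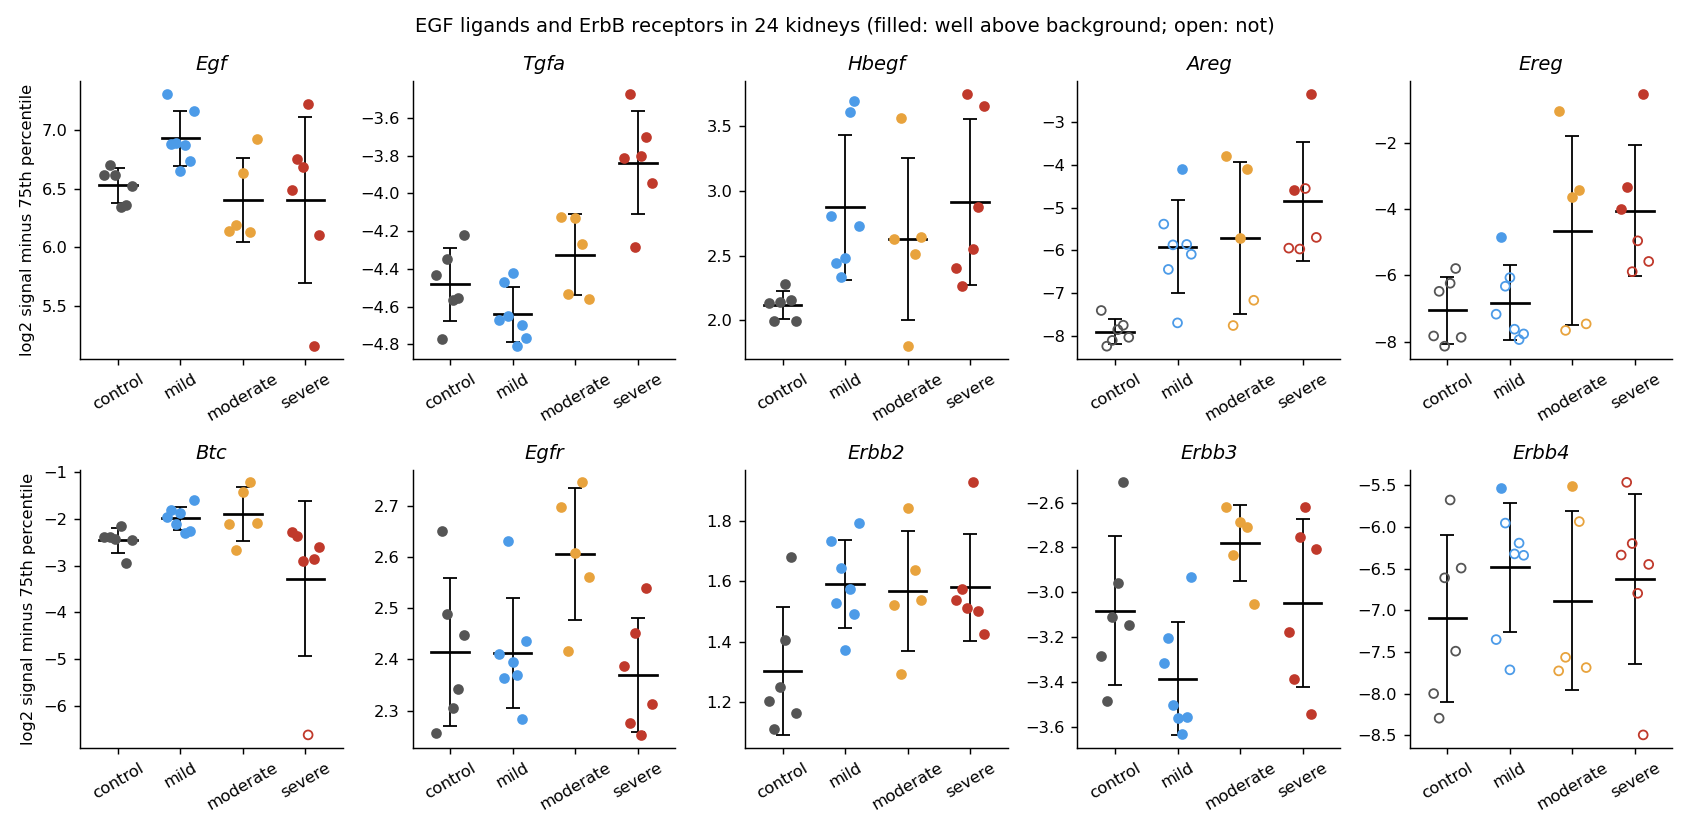
Values of the 10 genes in each of 24 kidneys (vertical axes: log2 signal minus the 75th percentile of the array, with a different range in each panel; horizontal axes: group). Each point is a kidney, filled where the probe was well above background and open where it was not, and bars give the mean ± SD of the group. Areg and Ereg are open in all 6 controls, Tgfa is highest in the severe group, and Hbegf spreads more widely in each mgb-/- grade than in the controls.

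Areg encodes amphiregulin, a ligand of EGFR. In the controls it ranged from -8.23 to -7.40 with a median of -7.94, and no control array was well above background. In mild kidneys the lowest, median and highest values were -7.69, -5.87 and -4.10. The moderate kidneys measured -3.79, -7.75, -5.72, -4.09 and -7.16, and the severe kidneys ranged from -5.97 to -2.35 with a median of -5.15. All 18 mgb-/- kidneys thus exceeded the control mean and 16 exceeded every control, with mild replicate 4 and moderate replicate 2 inside the control range. The group means were -7.89 ± 0.30 in controls (SD, n = 6) and -5.50 ± 1.40 in mgb-/- kidneys (SD, n = 18), with an adjusted p by limma of 0.00886. With each control raised to the lowest signal well above background on its array, the bound for amphiregulin mRNA was 1.37-fold in mgb-/- kidneys. Of these, 6 of 18 were well above background. The bound is not a strict minimum, because mgb-/- values not well above background entered as measured. Areg was also not well above background at -4.56 in severe replicate 4, where the lowest such signal was -4.70. Without severe replicate 5 the bound was 1.20-fold. The corresponding bound was 2.15-fold in severe kidneys, 2 of 6 of which were well above background (adjusted p by limma 0.00738). It was 1.52-fold without severe replicate 5. Neither mild kidneys (adjusted p by limma 0.0734) nor moderate kidneys (adjusted p 0.110) were called. Their bounds were 1.03-fold and 1.19-fold. None of the bounds of Areg was firm, because many mgb-/- values of every grade lay near background. Without mild replicate 5 the mild bound was 0.83-fold. Without moderate replicate 1, a kidney with adrenal transcripts, the moderate bound was 0.86-fold (adjusted p 0.333). The difference of means was 2.35, 2.36 and 2.45 within slides 1, 2 and 3. The call held when any 1 kidney was left out, but the fitted log2 change of 2.39 (SE 0.56) was 0.57 with normexp background correction, where it was still called.

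Hbegf encodes heparin-binding EGF, a ligand that is also an immediate early gene. Its 6 control values lay close together, from 1.99 to 2.28 with a median of 2.14. Mild kidneys ranged from 2.34 to 3.69 with a median of 2.73, moderate kidneys measured 2.63, 3.56, 1.80, 2.51 and 2.64, and severe kidneys ranged from 2.27 to 3.75 with a median of 2.71. Of 18 mgb-/- kidneys 16 exceeded every control, and moderate replicate 3 was below every control. The log2 change was 0.70 (SE 0.24, 1.63-fold) with an adjusted p by limma of 0.0498, which lies at the threshold. The adjusted p rose above 0.05 for 18 of the 24 kidneys when each was left out, up to 0.0962 without control replicate 3, whereas the change itself stayed between 0.65 and 0.76. No grade on its own was called (log2 change 0.75, 0.51 and 0.80 for mild, moderate and severe kidneys, with adjusted p 0.117, 0.382 and 0.0667). The grades did not separate from each other, since the interval of the severe minus mild difference ran from -0.54 to 0.63. The difference between mgb-/- and control means was 0.37, 1.07 and 0.67 within slides 1, 2 and 3. The spread was wide within each grade, with an SD of 0.56, 0.63 and 0.64 in mild, moderate and severe kidneys against 0.11 in controls.

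Erbb2 encodes the receptor without a ligand of its own, measured on a probe with 10 spots. Its controls ranged from 1.11 to 1.68 with a median of 1.23. Mild kidneys ranged from 1.37 to 1.79 with a median of 1.57, moderate kidneys measured 1.52, 1.30, 1.84, 1.64 and 1.54, and severe kidneys ranged from 1.42 to 1.93 with a median of 1.53. The groups overlapped, as 17 of 18 mgb-/- kidneys were above the control mean but only 4 were above the highest control, replicate 5. The log2 change was 0.28 (SE 0.089, 1.21-fold, adjusted p by limma 0.0416). The means of the 3 grades were close at 1.59, 1.57 and 1.58, and the interval of the severe minus mild difference ran from -0.24 to 0.22. Without control replicate 2 the change was 0.24 and the adjusted p 0.108, and leaving out 1 kidney raised the adjusted p above 0.05 for 15 of 24 kidneys. Without severe replicate 4, the highest kidney, the change was 0.26 (adjusted p 0.0431). Within slides 1, 2 and 3 the difference was 0.30, 0.10 and 0.44. When arrays were scaled by the median, which moved the median change of all genes to -0.15, Erbb2 changed by 0.12 and Hbegf by 0.54, and neither was called. Relative to that median they stood at 0.27 and 0.69.

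The members that were not called in this comparison included Ereg, with a bound of 1.59-fold formed as for Areg (means -5.29 and -7.06, adjusted p by limma 0.212). The others had log2 changes of 0.20 for Tgfa, 0.08 for Egf, 0.07 for Btc, 0.04 for Egfr and -0.02 for Erbb3. Egfr encodes the receptor of all 6 ligands. Its controls ranged from 2.26 to 2.65 with a median of 2.39, its mild kidneys from 2.28 to 2.63 with a median of 2.40 and its severe kidneys from 2.25 to 2.54 with a median of 2.35. The moderate kidneys measured 2.70, 2.42, 2.61, 2.75 and 2.56, so that the groups overlapped. The interval of the mgb-/- minus control difference ran from -0.13 to 0.20. The other 2 Egfr probes, annotated to a different Egfr transcript from the probe used, gave differences of -0.27 and -0.15 between the means. Their sign was opposite to that of the probe used, and no error was computed for them. For Erbb3, the receptor with little kinase activity, controls ranged from -3.48 to -2.51 with a median of -3.13 and severe kidneys from -3.54 to -2.62 with a median of -2.99, and the interval of the mgb-/- minus control difference ran from -0.37 to 0.32. Erbb4, a receptor of heparin-binding EGF and betacellulin as well as of the neuregulins, had only values near the detection limit. Its controls ranged from -8.29 to -5.67 and its mgb-/- kidneys from -8.50 to -5.46, with overlap of all groups and no test. The interval of Btc was wide (-0.89 to 1.02). The plot of the changes sets these intervals side by side.

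**Figure D2:**
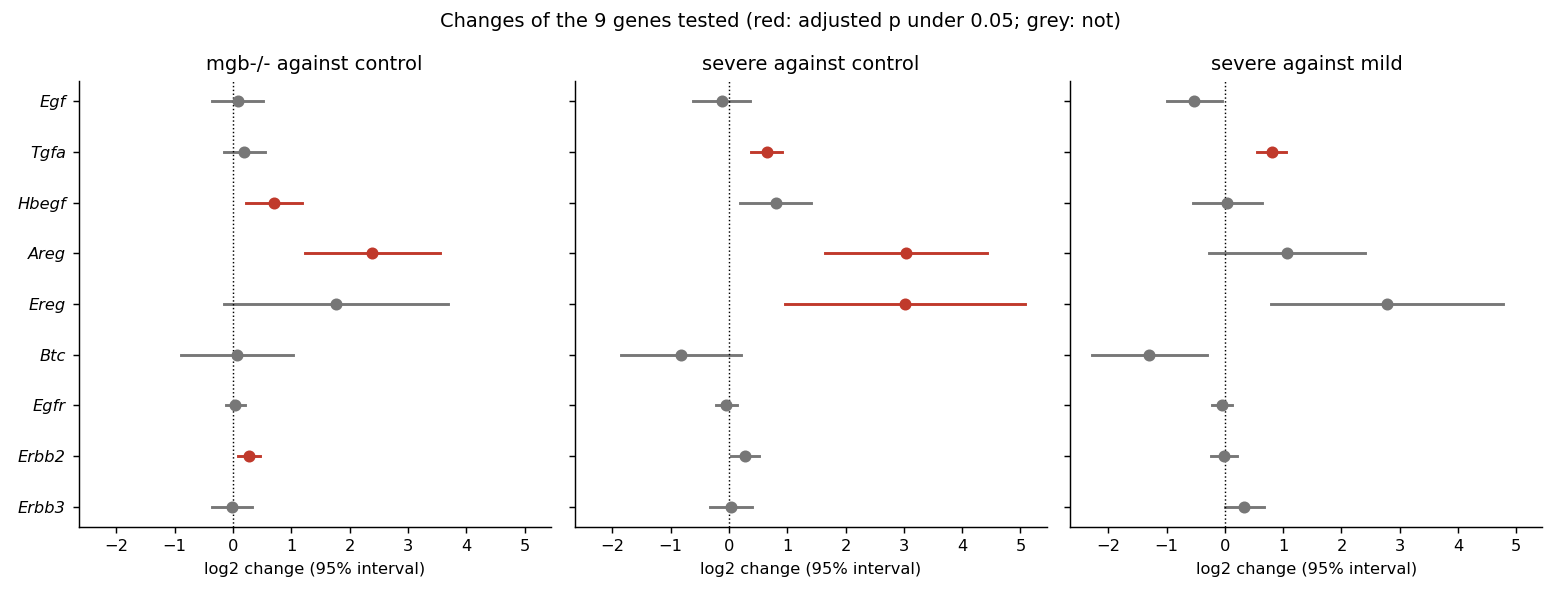
Log2 changes of the 9 genes tested (horizontal axes) for mgb-/- against control, severe against control and severe against mild kidneys. Points are the fitted changes and lines their 95% intervals, in red where the adjusted p was under 0.05; Areg is red in the first 2 panels, Tgfa in the last 2, the changes of Areg and Ereg rest on control signals that were not well above background, and those of Btc include severe replicate 4, where it was not well above background.

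Comparison of each grade with the controls asked whether the family changed with the degree of hydronephrosis. No member was called in mild kidneys, where 6.02% of all genes were called, or in moderate kidneys, where 1.2% were. At an unadjusted p under 0.05 the limma fit held 3 of the 9 members in mild kidneys and 4 in moderate kidneys, beside 5976 and 5157 of all genes. In severe kidneys 3 of 9 members were called, all higher, beside 16.1% of all genes in either direction and 6.57% higher. They were Tgfa, Areg and Ereg, all ligands. Areg and Ereg passed the filter only through mgb-/- kidneys, so this count carries that selection and only Tgfa is free of it. The set depended on the scaling. With quantile normalization the 3 called were Areg, Hbegf (0.93, adjusted p by limma 0.0308) and Erbb2 (0.38, adjusted p 0.0376), whereas Tgfa (adjusted p 0.0584) and Ereg (adjusted p 0.0641) were not, and with median scaling Areg alone was called. The grade comparisons share the same 6 controls.

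Tgfa encodes transforming growth factor alpha, a ligand with high affinity for EGFR. Its controls ranged from -4.77 to -4.22 with a median of -4.49, and its mild kidneys from -4.81 to -4.42 with a median of -4.67. The moderate kidneys measured -4.13, -4.53, -4.13, -4.27 and -4.56, and the severe kidneys ranged from -4.28 to -3.47 with a median of -3.81. All 6 severe kidneys exceeded every mild kidney, and 5 of 6 exceeded every control, severe replicate 3 being the exception. Severe kidneys were higher than controls by 0.64 on the log2 scale (SE 0.13, 1.56-fold, adjusted p by limma 0.00331) and higher than mild kidneys by 0.80 (SE 0.12, 1.75-fold, adjusted p 0.00338). In the order of the means (severe, moderate, control, mild), moderate kidneys differed neither from mild kidneys (0.32, adjusted p 0.634) nor from controls (0.16, adjusted p 0.551), and severe kidneys exceeded moderate kidneys by 0.49 without passing the test (adjusted p 0.234). The severe minus mild difference was 1.15, 0.65 and 0.82 within slides 1, 2 and 3, where the severe kidneys numbered 1, 2 and 3. It was called when any 1 kidney was left out. The call was lost with only the mild and severe kidneys in the fit (adjusted p by limma 0.0787). It was also lost with normexp background correction, where the difference was 0.40 (adjusted p 0.0513).

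Tgfa was the only member called between mild and severe kidneys, a comparison in which 0.587% of all genes were called and 0.533% were higher in severe kidneys. No member was called between moderate and mild kidneys, where 0% of all genes were called, and 5 of 9 members passed an unadjusted 0.05 in the limma fit, beside 1866 of all genes. Among those was Erbb3, higher in moderate than in mild kidneys by 0.60 (SE 0.17, unadjusted p in the limma fit 0.00213, adjusted p 0.511). Its moderate values were -2.62, -2.83, -2.69, -2.71 and -3.05, and its mild values ran from -3.63 to -2.93 with a median of -3.50. Thus 4 of 5 moderate kidneys exceeded every mild kidney. No member was called between severe and moderate kidneys, where 0.00715% of all genes were called, and 3 of 9 members had an unadjusted p under 0.05, beside 2895 of all genes.

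Ereg encodes epiregulin, and its values spread widely among the mgb-/- kidneys, from -7.94 to -0.51. Controls ranged from -8.14 to -5.79 with a median of -7.16, and no control array was well above background. Mild kidneys ranged from -7.94 to -4.85 with a median of -7.17, and 1 of 7 was well above background. The moderate kidneys measured -1.04, -7.66, -3.63, -3.42 and -7.47, and the severe kidneys ranged from -5.89 to -0.51 with a median of -4.48. The highest kidneys were severe replicate 5 and moderate replicate 1. The bound of Ereg, formed as for Areg and likewise not a strict minimum, was 3.77-fold in severe against control kidneys. The group means were -4.04 and -7.06, with 3 of 6 severe arrays well above background (adjusted p by limma 0.0423). Without severe replicate 5 the bound was 2.31-fold and the adjusted p 0.105, and the call was lost when any of 8 kidneys was left out. In moderate kidneys the bound was 2.48-fold, with 3 of 5 arrays well above background (adjusted p 0.220). It was 1.33-fold without moderate replicate 1, a kidney with adrenal transcripts, and 4.19-fold or 4.05-fold without moderate replicate 2 or 5. No fold is given for mild kidneys, whose mean lay under the raised mean of the controls.

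Areg, Ereg and Btc lie beside each other on chromosome 5, in the order Epgn, Ereg, Areg and Btc among protein-coding genes, and did not move alike. Epgn, which encodes the ligand epigen, had a log2 change of 1.70 (SE 0.59) in mgb-/- kidneys with an adjusted p by limma of 0.0549. Btc encodes betacellulin, and its log2 change was 0.07 (SE 0.46, adjusted p 0.942). Its controls ranged from -2.95 to -2.15 with a median of -2.41, its mild kidneys from -2.30 to -1.60 with a median of -1.96, and the moderate kidneys measured -2.11, -2.66, -1.41, -1.22 and -2.08. The severe kidneys ranged from -6.63 to -2.29 with a median of -2.73. Hence 9 of 12 mild and moderate kidneys were above every control and no severe kidney was. The lowest value was severe replicate 4, the kidney with the smallest share of probes well above background. Btc was not well above background on that array, so its value there is only a bound. Without it the severe minus mild difference was -0.62 (adjusted p by limma 0.166), and Btc was called neither with nor without that kidney. Over the 24 kidneys Areg and Ereg correlated with r = 0.69, and Btc correlated with neither (r = -0.13 with Areg and -0.04 with Ereg), most values of the former pair being below detection.

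Egf encodes the ligand after which the family's pathway is named, and it was not called in any comparison but spread widely among mgb-/- kidneys. Controls ranged from 6.34 to 6.70 with a median of 6.57. Mild kidneys ranged from 6.65 to 7.31 with a median of 6.88, moderate kidneys measured 6.14, 6.19, 6.63, 6.13 and 6.93, and severe kidneys ranged from 5.16 to 7.22 with a median of 6.59. Of the 7 mild kidneys 6 were above every control, and 3 of 5 moderate and 2 of 6 severe kidneys were below every control. The SD was 0.15 among controls, and it was 0.23, 0.36 and 0.71 for the mild, moderate and severe grades, the last being 0.40 without severe replicate 5. None of the differences passed the test. Mild kidneys were higher than controls by 0.40 (adjusted p by limma 0.329), and the severe minus mild difference was -0.53 (SE 0.23, adjusted p 0.394), or -0.28 without severe replicate 5. In whole kidneys, fewer cells of a type and less RNA per cell cannot be told apart.

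To set the members beside the cell types of the kidney, their values were related over the 18 mgb-/- kidneys to the mean of each of 3 marker lists, for the thick limb and distal tubule, the urothelium and leukocytes. Of 27 relations, 6 had an adjusted p under 0.05 in the permutation test, which was two-sided with 100000 resamples, and 3 of the 6 were of Ereg. Egf followed the thick limb and distal tubule with r = 0.96 and rho = 0.93 (permutation p of 1e-05, the smallest these resamples can give, for both; adjusted p 0.000135). Without the 2 kidneys farthest from the median r was 0.93. Within slides 1, 2 and 3 r was 1.00, 0.98 and 0.92. It was 0.91 within the 7 mild and 0.99 within the 6 severe kidneys (adjusted p in the permutation test 0.102 and 0.0625). The relation held across the list, since 13 of 15 markers had r over 0.5 with Egf, with a median of 0.82. Calb1, the calcium-binding protein of the distal convolution, had r = 0.92, the sodium-chloride cotransporter gene Slc12a3 had 0.84, Slc12a1, the cotransporter of the thick limb, had 0.81, and Umod, which encodes uromodulin, had 0.79. Claudin genes were lowest (Cldn10 0.39, Cldn16 0.42). In mgb-/- against control kidneys, Cldn16 rose by 1.70 (SE 0.12, adjusted p by limma 9.22e-09). Of the 15 markers 2 were called, both as higher, beside 13.3% of all genes called in either direction. The changes of the list ran from -0.80 to 1.70 with a median of 0.16.

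Tgfa followed the urothelium with r = 0.89 and rho = 0.92 (permutation p 1e-05 for both, adjusted p 0.000135). Without the 2 farthest kidneys r was 0.88, within slides 1, 2 and 3 it was 0.95, 0.89 and 0.91, and within mild and severe kidneys 0.76 and 0.78. Of 13 urothelial markers 12 had r over 0.5, the highest being Foxa1 at 0.89 and Krt14 at 0.88, and Trp63 had -0.24. Of the 13 genes of this list, 5 rose in the mgb-/- group (median log2 change 1.81). Against controls 1 rose in mild kidneys (median 0.40), 3 in moderate kidneys (median 1.65) and 11 in severe kidneys (median 3.22). Between severe and mild kidneys 10 rose (median 2.78, beside -0.01 over all genes). Of all genes, 13.3% were called in the mgb-/- group and 6.02%, 1.2% and 16.1% in mild, moderate and severe kidneys against controls. Between severe and mild kidneys 0.587% were. Limma called 0 between moderate and mild kidneys (8 at an unadjusted p under 0.05) and 0 between severe and moderate kidneys (9 at that p). The uroplakin genes Upk2, Upk1b and Upk3a, which encode the plaque proteins of the urothelial surface, rose by 3.15 (SE 0.49), 3.11 (SE 0.52) and 2.99 (SE 0.52) between mild and severe kidneys, with adjusted p by limma of 0.00375, 0.00589 and 0.00725. The cornified envelope gene Ivl rose by 3.22 (SE 0.66, adjusted p 0.0203). Each of the 13 genes was well above background on at least 1 control array. The mean of the list lay between -1.45 and -0.22 in controls, -1.30 and 1.45 in mild, -0.43 and 1.67 in moderate and 1.47 and 3.20 in severe kidneys, and its part in the rise of Tgfa was not tested.

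Ereg was well above background in 7 of the 18 mgb-/- kidneys, so most of its values below are background signal and its relations are given as descriptions. With the urothelial list r was 0.74 and rho 0.78, with r = 0.72 without the 2 farthest kidneys and 0.77, 0.81 and 0.75 within slides 1, 2 and 3. Krt19, Krt14 and Krt5 had the highest r with Ereg (0.87, 0.87 and 0.85), and Trp63 had -0.62. Ereg also ran against the thick limb list with r = -0.67 and rho = -0.51, and with leukocyte markers at r = 0.62 and rho = 0.49. Egf ran against leukocyte markers with r = -0.75 and rho = -0.60 (permutation p 0.0008 and 0.00937, adjusted p 0.0054). Without the 2 farthest kidneys these 3 values were -0.33, 0.55 and -0.43, and without severe replicate 5 they were -0.52, 0.42 and -0.53. None passed the adjusted test in either case, so they rest on few kidneys. Of 13 leukocyte genes limma called 0 in mgb-/- against control kidneys, beside 13.3% of all genes, and 3 had an unadjusted p under 0.05. The plot of ligands against markers shows Egf against the thick limb list and Tgfa and Ereg against the urothelial list.

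**Figure D3:**
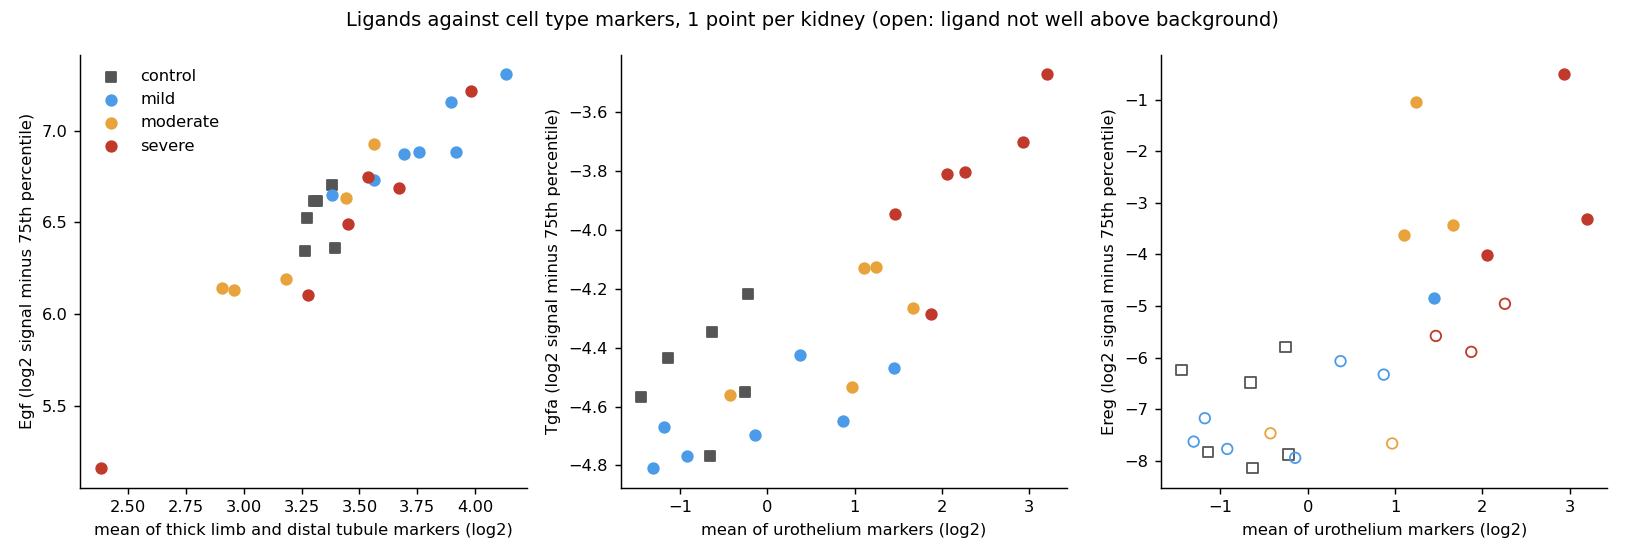
Egf against the mean of 15 thick limb and distal tubule markers, and Tgfa and Ereg against the mean of 13 urothelial markers, with 1 point per kidney (all axes: log2 signal minus the 75th percentile of the array). Squares are the 6 controls and circles the mgb-/- kidneys coloured by grade, open where the ligand was not well above background; Egf rises along the first axis in all grades with severe replicate 5 lowest, and the 6 severe kidneys lie at 1.47 or above on the urothelial axis, where 1 moderate kidney (1.67) overlaps them.

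Other genes with patterns most like those of the members were found by Pearson's r over the 24 kidneys, given as a description. For Egf they were Bckdhb, a subunit of branched-chain ketoacid dehydrogenase (0.95), a transcript without a name in the table used (0.94), Tln2 (0.94), Wnk1, a kinase that regulates salt transport (0.93), and Tmem52b (0.93). For Hbegf they were Ier2 (0.87) and Jun (0.81), both immediate early genes, and Prmt6 (0.81). For Areg they were Trpv6, an epithelial calcium channel (0.91), and 2 transcripts without a name (0.90 each). For Erbb2 they were Plin3 (0.90), an unnamed transcript (0.87) and Ap1m2, an adaptor of epithelial sorting (0.86). Chosen after its values were seen, Ereg was most like Sprr2f (0.92), and the injury gene Lcn2 was the fifth (0.90).

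Genes that act with the family were described from fixed lists in mgb-/- against control kidneys. In that comparison 13.3% of all genes were called in either direction and 5.34% as higher. Among 4 of 5 further ErbB ligands tested (Nrg3 was not), Nrg2, a neuregulin, rose by 1.54 (SE 0.43, adjusted p by limma 0.0217), and the median was 0.82. Of 12 genes of ligand shedding, Adam17, the protease that releases several of these ligands, rose by 0.45 (SE 0.13, adjusted p 0.0217), and the median was 0.12. In severe kidneys against controls, 2 of the 12 were higher and 1 was lower, beside 16.1% of all genes called in either direction. Higher were Adam17 (0.62, SE 0.15, adjusted p by limma 0.0111) and Adam12 (0.61, SE 0.20, adjusted p 0.0410). Adam9 was lower (-0.47, SE 0.12, adjusted p 0.0166). Of 25 signal transducers, 2 rose and 4 fell, with a median of -0.10. The transcription factor gene Stat3 rose by 0.90 (SE 0.20, adjusted p 0.00594), and Pik3r1, the regulatory subunit of phosphoinositide 3-kinase, rose by 0.41 (SE 0.095, adjusted p 0.00867). Its catalytic partner Pik3ca changed by -0.41 (SE 0.11, adjusted p 0.0181) and the docking protein gene Gab1 by -0.54 (SE 0.13, adjusted p 0.0115). Thus the 2 subunits of that kinase moved in opposite directions.

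Of 16 negative regulators, 2 rose and none fell, with a median of 0.10, beside 13.3% of all genes called in either direction. They were Ptprj, a receptor phosphatase (0.43, SE 0.14, adjusted p by limma 0.0431), and Cblb, a ubiquitin ligase (0.35, SE 0.11, adjusted p 0.0379). Of 16 genes known to respond to the ERK pathway, 3 rose and 2 fell, with a median of 0.32, so the list did not move one way. Dusp5, a phosphatase of ERK, rose by 1.38 (SE 0.31, adjusted p 0.00661), the early response gene Ier3 by 1.32 (SE 0.24, adjusted p 0.00169) and Spry2, an inhibitor of receptor signalling, by 0.56 (SE 0.14, adjusted p 0.0103). The ETS factor gene Etv1 changed by -1.36 (SE 0.32, adjusted p 0.0085). Between severe and mild kidneys limma called 0 genes of these 5 lists, beside 0.587% of all genes. At an unadjusted p under 0.05 in that fit they held 2 shedding genes, 3 transducers and 3 negative regulators. They also held 1 ERK response gene and 0 further ligands, beside 3104 of all 27958 genes tested. The plot of the pathway lists shows each gene.

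**Figure D4:**
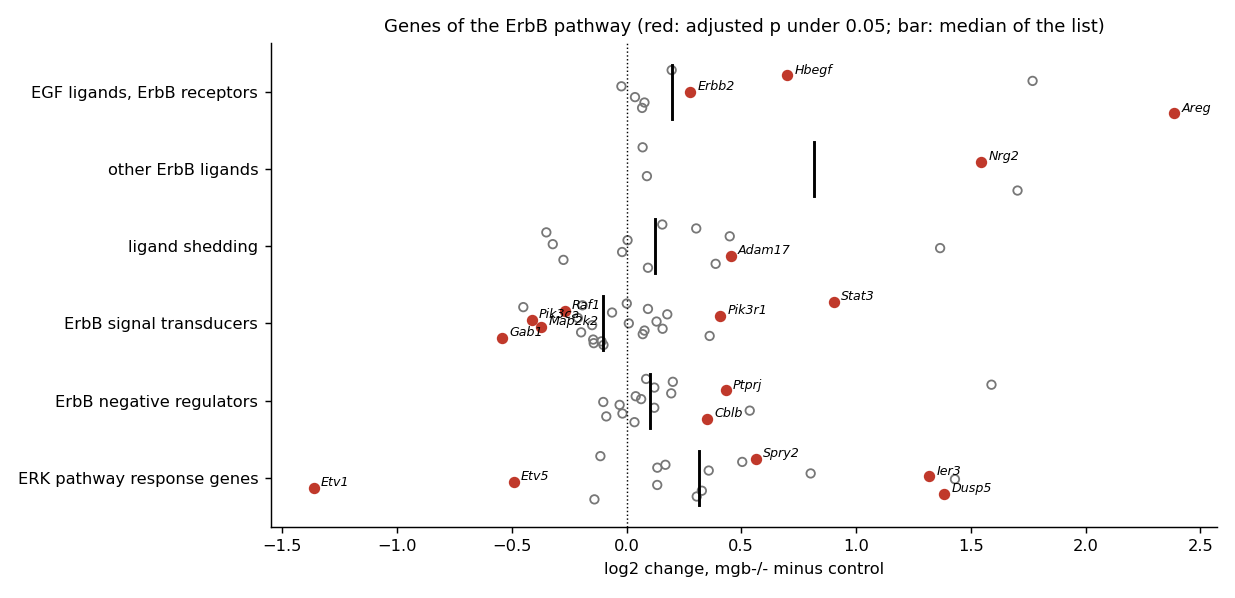
Log2 change of each gene tested in mgb-/- against control kidneys (horizontal axis), by list (vertical axis, with the points of a list spread for legibility). Red points with names had an adjusted p under 0.05, open points did not, and black bars are list medians; the ERK response genes and the signal transducers have red points on both sides of 0.

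Markers of other cell types and of injury moved in the same comparison, and their part in the changes of Areg, Hbegf and Erbb2 was not tested. Of all genes, 13.3% were called in either direction and 5.34% as higher. Of 12 tubular injury genes 4 rose (median 1.40), led by Krt20 (2.75, SE 0.72, adjusted p by limma 0.0158) and the cell cycle inhibitor gene Cdkn1a (2.12, SE 0.38, adjusted p 0.00161). The smooth muscle genes Tagln (1.28, SE 0.30, adjusted p 0.00842) and Acta2 (1.20, SE 0.34, adjusted p 0.0223) were 2 of the 3 of 12 stromal genes that rose (median 0.59). Of the remaining lists, 1 of 13 collecting duct genes and 1 of 10 endothelial genes were higher, 1 of 15 proximal tubule genes was lower and 0 of 9 podocyte genes were called (with 1 of them below 0.05 in limma before adjustment). The adrenal list had a median of 2.32, with 0 of 7 genes called (0 at that p). Against controls its median was 3.36 in mild kidneys (0 called, 5 below 0.05 before adjustment), 2.87 in moderate kidneys and 0.59 in severe kidneys. Without mild replicate 4 and moderate replicate 1, the kidneys with adrenal transcripts, 2 members were called in place of 3, Hbegf having an adjusted p by limma of 0.0551 at a change of 0.73. In that fit Areg was called in mild kidneys too (2.27, adjusted p 0.0271).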

How the data were processed

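Total RNA of 24 whole kidneys had been hybridized to 1-colour Agilent arrays and read with Agilent Feature Extraction 10.10, per the submitters' processing notes. The authors deposited the scanner output, in which the processed signal is an intensity with background subtracted and no normalization between arrays. They also deposited a table of normalized intensities, by a method not given in the sources used here, which served as an alternative. Processed signals were converted to log2 and each array's 75th percentile (496 to 968) was subtracted. Outlier spots were left out, spots of a probe were averaged, a probe was kept if 5 or more arrays had it well above background (38834 were), and each gene took its brightest probe. Probes were named by accession through RefSeq (26762 of 55681). Tests were run in R 4.3.3 with limma 3.58.1. The fit of mgb-/- against control had 2 groups and that of the grades had 4, with Benjamini-Hochberg adjustment over 27958 genes. For a group with no array well above background, each array was raised to its lowest signal well above background to give a bound. That signal is the lowest of any probe and not the detection limit of the gene's own probe. The other group entered as measured. The number of arrays limits the precision. The fit of mgb-/- against control was tested on simulated data in which every group had the spread of the controls. The wider spread of mgb-/- kidneys for members such as Areg and Hbegf was not simulated, so that test does not cover it. The result of 1 marker gene is not reported here. The members, gene lists and naming rule (all members, up to 4 called genes per list and comparison with the largest change, defining markers, and the genes with the highest r) were chosen with earlier results of these data known. Alternatives were other normalizations, filters, probe rules, blocks, weights, thresholds and the omission of each kidney; the omission of 2 kidneys with adrenal transcripts and the relations within a grade were added after seeing the data.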

Additional observations from a re-analysis of the deposited data

Results flagged for a closer look

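In 3 cases a value lay apart from the others of its group by Dixon's test at the 95% level, out of 40 groups of 5 to 7 kidneys, and chance gives about 1 in 20. Btc was -2.95 in control replicate 5, -6.63 in severe replicate 4, and Erbb2 was 1.93 in severe replicate 4. Severe replicate 4 was also the kidney with the fewest probes well above background. Btc was not called with or without it.

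Tgfa rose in severe relative to mild kidneys (0.80 on the log2 scale, adjusted p by limma 0.00338), a difference between grades that was tested directly.

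The Erbb4 probe, which entered no comparison, was well above background on 2 mgb-/- arrays (mild replicate 2 at -5.52 and moderate replicate 3 at -5.51) and on no control array. Its control values ran from -8.29 to -5.67, and severe replicate 2, at -5.46, was higher than both without being well above background.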

How the results depend on the processing

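Areg kept its direction and its call in the 36 alternatives that tested it for mgb-/- against control (0.57 to 2.52), where Hbegf had 37. It also did so in the 37 that tested it for severe kidneys (0.84 to 3.26), where Tgfa had 38. Areg was well above background on 0 of 6 control and 6 of 18 mgb-/- arrays, so these calls compare mostly undetected signal. Alternatives that changed only a threshold repeat the same fit and add no separate evidence. Tgfa kept its sign in all 38 for severe against mild kidneys (0.40 to 0.89; adjusted p by limma under 0.05 in 36) and for severe against control (0.37 to 0.73; 36), where quantile normalization gave 0.46 (adjusted p 0.0584) and median scaling 0.47 (0.0559). Ereg in severe against control kidneys ranged from 1.09 to 3.39 (23 of 37 under 0.05). For mgb-/- against control, Hbegf ranged from 0.54 to 0.83 (14 of 37) and Erbb2 from 0.12 to 0.41 (19 of 37). Of the single-gene and relation values 99 lost and 37 gained a call, and 1 value that had been called turned its sign: Egf with leukocyte markers had r = 0.43 within mild kidneys. Values that had not been called turned theirs more often, for 22 pairs of member and comparison in at least 1 alternative (Egfr in mild against control in 12).

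Counts of members called moved as follows. For mgb-/- against control, 3 became 1 under median scaling, no dim filter, the replicate block and a fold of at least 2, and 1 to 3 with a kidney left out (1 without any control but replicate 5, mild replicate 1, 2, 5 or 7, moderate replicate 1 or 4, or severe replicate 1). For mild against control, 0 became 1 with the authors' table, an adjusted p under 0.1 and without the adrenal kidneys, 4 with array weights or only the compared groups, and 0 to 1 with a kidney left out (1 without mild replicate 4 or severe replicate 5). For moderate against control, 0 became 4 with weights, and 0 to 1 with a kidney left out (1 without moderate replicate 2). For severe against control, 3 became 1 under median scaling and 5 with weights or an adjusted p under 0.1. For severe against mild, 1 became 0 with normexp correction, only the compared groups and a fold of at least 2. For moderate against mild, 0 became 2 with weights. The 6 relations became 3 without the 2 farthest kidneys, 0, 0 and 1 within slides 1, 2 and 3, 0 within the mild and 0 within the severe grade, and 3 to 7 with a kidney left out (3 without severe replicate 5).

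Replicate numbers did not pair the samples: 33 same-numbered pairs had r from -0.548 to 0.646 (10 over 0.1), and 6 of 24 kidneys matched their own number best. With the replicate block Hbegf gave 0.74 (adjusted p 0.0668) and Erbb2 0.26 (0.0822) for mgb-/- against control, and Ereg 3.02 (0.0802) for severe against control. Scan time coincided with the slide and was not run apart. Areg, Ereg and Erbb4 are limited by signal over background. The cause of these changes was not tested.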
